A study of Mus musculus with 2 samples.

Results

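The genes described here encode the large-conductance (BK) and small-conductance (SK) calcium-activated potassium channels, with their auxiliary beta subunits and the intermediate-conductance relative Kcnn4. The members were chosen by name: Kcnma1, Kcnmb1, Kcnmb2, Kcnmb4, Kcnn1, Kcnn2, Kcnn3 and Kcnn4, which are 8 of the 43346 mouse genes in the deposited tables, and all 8 were matched. They were measured by RNA-seq in Purkinje cells, the output neurons of the cerebellar cortex, of male wild-type C57Bl6 mice (strain B6NCrl) aged 8 months. The labels give 1 group of 2 biological replicates, called pool 1 and pool 2, each a library from 50 cells, with a laser capture procedure linked for both. A Smart-seq protocol is linked for pool 2 only. Both pools carry 1 donor identifier with separate biosamples, so whether they came from separate animals is not known from the labels, and SDs over the pools may hold only technical spread. With no second condition there was nothing to test between conditions, and every value below describes the pools.

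A BK channel opens when membrane depolarization and a rise in intracellular calcium coincide, and it repolarizes the action potential. An SK channel has no voltage sensor of its own: calmodulin bound to its tail senses calcium, and the current shapes the afterhyperpolarization and the regularity of firing. In Purkinje cells both kinds are known to draw on calcium entering through P/Q-type channels, and loss of either disturbs pacemaking and motor coordination.

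Pool 1 held 23830685 expected counts (the authors' estimated reads) and pool 2 held 27907662. All 14 Purkinje cell markers used here were detected, that is, they reached at least 1 TPM (the deposited unit of level, scaled by transcript length and library) in both pools. Markers of other cells were present as well. The summed TPM of 11 Bergmann glia and astrocyte markers was 4428 in pool 1 and 4657 in pool 2. That of 10 granule cell markers was 134 and 171, and that of 5 blood markers was 651 and 2274. For 9 oligodendrocyte markers the sum was 235 and 228, and for 7 endothelial markers 108 and 141. For 7 interneuron markers of the molecular layer it was 62.05 and 76.68, and for 5 Golgi cell markers 9.15 and 22.35. The 14 Purkinje cell markers summed to 42556 and 40838 TPM. The levels are therefore those of captured pools, in which fewer cells of a type and less RNA per cell cannot be told apart.

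Of the 8 members, 4 were detected: Kcnma1, Kcnmb4, Kcnn2 and Kcnmb1. Over all mouse genes 28.8% were detected by the same rule, and over the 99 genes whose symbol starts with Kcn 37.4% were. In order of mean TPM, Kcnma1 (169.6 ± 47.5, SD, n = 2) stood far above Kcnmb4 (18.6 ± 0.311) and Kcnn2 (18.3 ± 1.36), which did not differ beyond the spread of the pools. Kcnmb1 followed (3.33 ± 1.61). Kcnn1 (0.425 ± 0.0636), Kcnmb2 (0.295 ± 0.177) and Kcnn3 (0.185 ± 0.0636) lay under the detection level, and of these neighbours neither Kcnn1 and Kcnmb2 nor Kcnmb2 and Kcnn3 differed beyond the larger of their SDs. Kcnn4 had no reads.

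**Figure D1:**
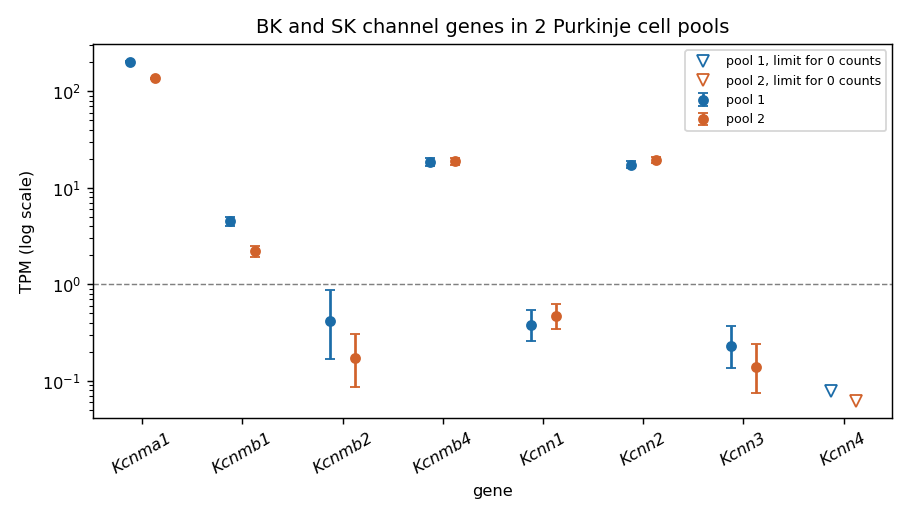
TPM on a log axis of the 8 members in pool 1 and pool 2, with bars for the 95% exact Poisson interval of the count (counting error only), open triangles for the limit that 0 counts allow, and a dashed line at the detection level of 1 TPM. Kcnma1 lies near 203 and 136 TPM, Kcnmb4 and Kcnn2 lie together between 17.4 and 19.3, Kcnmb1 lies at 4.47 and 2.19, and the other 4 members lie below the line.

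Kcnma1 encodes the pore-forming alpha subunit of the BK channel and lies on the minus strand of chromosome 14 (GRCm38, the mm10 build, 23289431 to 24014491). Pool 1 gave it 203 TPM (16142 expected counts) and pool 2 gave it 136 TPM (13651 expected counts). The 95% exact Poisson intervals, which cover counting error only, were 200.1 to 206 and 134 to 138 TPM, so the pools differed by more than counting error. Kcnma1 ranked 829 among the 12495 detected genes and 4 among the genes with a Kcn symbol, after Kcnip1 and Kcnip4, which encode calcium-binding partners of Kv4 channels, and Kcnab1, which encodes a beta subunit of Kv1 channels. In summed TPM of the BK and SK pore subunits (Kcnma1 and Kcnn1 to Kcnn4), Kcnma1 took 91.9% in pool 1 and 87.2% in pool 2.

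**Figure D2:**
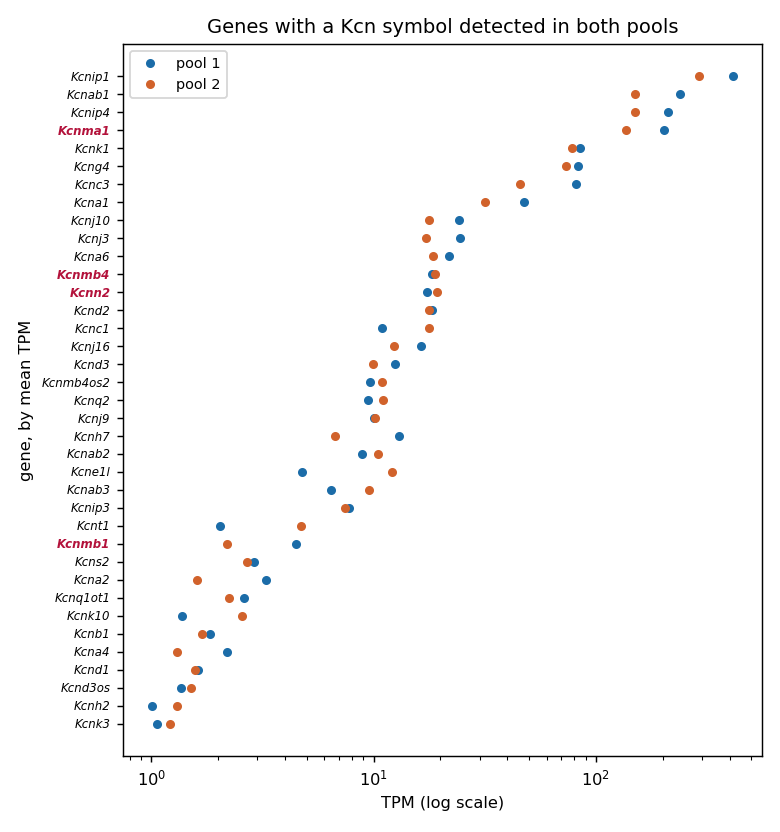
TPM on a log axis of the 37 genes with a Kcn symbol detected in both pools, ordered by mean TPM, with pool 1 and pool 2 as points and the 4 detected members in red bold type. Kcnma1 is the fourth from the top, Kcnmb4 and Kcnn2 lie side by side, and Kcnmb1 lies in the lower part.

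The Kcn genes nearest to Kcnma1, by Euclidean distance of log2(TPM + 1) over the 2 pools with members left out, were Kcnip4 (distance 0.15; 209.96 and 150.08 TPM in pools 1 and 2), Kcnab1 (0.27; 239 and 150 TPM) and Kcnk1 (1.48; 84.8 and 78.05 TPM), a two-pore channel gene. The nearest to Kcnn2 were Kcnd2 (0.13; 18.2 and 17.8 TPM), which encodes a Kv4 channel, Kcna6 (0.32; 21.9 and 18.5 TPM), a Kv1 channel gene, and Kcnj10 (0.48; 24.3 and 17.7 TPM), an inward rectifier gene expressed in glia. Over 2 pools this likeness is mainly one of level.

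The deposited table held 15 transcripts of Kcnma1, of which 5 were assigned 0 expected counts in both pools. Kcnma1-201 (ENSMUST00000065788) led in both, with 143 TPM or 70.4% of the gene in pool 1 and 93.7 TPM or 68.8% in pool 2. Kcnma1-215, a model of 890 nt with 2 exons at the 5′ end of the gene, followed with 8.11% and 9.06%, and Kcnma1-212 had 5.12% and 5.96%. Kcnma1-214 had 5.23% and 4.28%, and Kcnma1-204 had 2.92% and 5.37%. Kcnma1-216, which GENCODE M21 marks for nonsense-mediated decay, had 5.23% in pool 1 and 1.96% in pool 2, with 728.67 and 232 expected counts, and was the transcript of this gene over 5% in either pool whose share differed most between the pools.

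The models differ at their ends, which affects how reads were shared among them. The 8 models that start at base 23803304, an internal exon of the gene, took 73.4% of Kcnma1 in both pools, with Kcnma1-201 as the largest. The annotated coding sequence of Kcnma1-201 begins with the codon CAG and not with ATG, so this model is incomplete at its 5′ end. Of the models with a length that matches GENCODE M21, 4 start between 24004125 and 24004298, and they took 18.5% in pool 1 and 19.3% in pool 2. GENCODE M21 places the start of Kcnma1-211 and Kcnma1-216, whose deposited lengths do not match, in the same first exon. With them the 6 models took 23.7% in pool 1 and 21.3% in pool 2, so the order of the pools turned. The last exon of 1349 nt (23298694 to 23300042), which Kcnma1-201, Kcnma1-208 and Kcnma1-209 share, was held by models with 72.8% of the gene in each pool. These shares are estimates for whole annotated models, and reads on exons common to most models do not tell them apart. For Kcnma1-211 and Kcnma1-216, with 5.23% and 1.96% together, the deposited length differed from GENCODE M21, and they were left out of the other comparisons of exons and ends.

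The models also differ by short coding exons in the intracellular part of the channel, where alternative splicing is known to tune the response to calcium. They are shown here from the GENCODE M21 transcripts, 5′ to 3′ on the minus strand, with the alternative exon in capitals and 12 bases of the neighbouring exons in lower case. Shown are the 5 internal coding exons of a length divisible by 3 that models with at least 1% of the gene held and other such models skipped. The exon of 174 nt has the length of the stress-axis regulated exon (STREX), known to raise calcium sensitivity. It lies between the same neighbouring sequences as each of the exons of 9 nt, whose own sequences differ at 5 of the 9 bases.
Exon of 12 nt, chr14:23449200-23449211: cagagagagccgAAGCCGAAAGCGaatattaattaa
Exon of 174 nt, chr14:23425567-23425740: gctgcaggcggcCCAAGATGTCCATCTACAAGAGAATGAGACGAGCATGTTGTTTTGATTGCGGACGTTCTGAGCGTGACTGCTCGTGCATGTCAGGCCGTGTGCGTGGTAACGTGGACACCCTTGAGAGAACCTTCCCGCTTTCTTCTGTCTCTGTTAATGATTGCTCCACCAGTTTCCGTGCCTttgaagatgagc
Upstream exon of 9 nt, chr14:23402870-23402878: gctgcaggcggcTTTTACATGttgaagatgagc
Downstream exon of 9 nt, chr14:23387092-23387100: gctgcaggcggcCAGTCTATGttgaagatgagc
Exon of 81 nt, chr14:23336040-23336120: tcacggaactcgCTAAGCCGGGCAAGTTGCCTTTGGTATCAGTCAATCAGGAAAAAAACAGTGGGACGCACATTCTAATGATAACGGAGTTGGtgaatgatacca

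Over the 13 models of Kcnma1 with matching length, the downstream exon of 9 nt was in models with 70.4% of the gene in pool 1 and 68.8% in pool 2, all of it Kcnma1-201. The upstream exon of 9 nt was in Kcnma1-204 alone, with 2.92% and 5.37%. The exon of 174 nt was in models with 5.37% and 6.28%, and the exon of 12 nt in Kcnma1-212 alone, with 5.12% and 5.96%. Kcnma1-212 holds both of these exons, so the values are not independent. The exon of 81 nt was in models with 2.37% and 3.91%, all of it Kcnma1-209. Kcnma1-208 holds both the downstream exon of 9 nt and the exon of 81 nt and was assigned 0 expected counts. The deposited posterior mean gave Kcnma1-208 0.7% of the gene in pool 1 and 1.27% in pool 2. Among the exons that join this one pair of neighbours, the models with the downstream 9 nt exon stood far above those with the upstream 9 nt exon or the 174 nt exon in both pools, and the difference was larger than the spread of the pools. None of the exons between these neighbours is in Kcnma1-214 (5.23% in pool 1 and 4.28% in pool 2), Kcnma1-209 (2.37% and 3.91%) or Kcnma1-206 (0.18% and 0.15%). No junction reads were used here, so exon use was not measured directly.

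The exon of 81 nt joins directly onto the exon that encodes the calcium bowl, a stretch of acidic residues near the C-terminus that binds calcium. That exon (23330840 to 23330970) was in 12 of the 13 Kcnma1 models, all but Kcnma1-215. The stretch is shown because it is a calcium sensor that the detected long models have in common, with its run of 5 aspartate codons in capitals.
Calcium bowl of Kcnma1, chr14:23330894-23330968: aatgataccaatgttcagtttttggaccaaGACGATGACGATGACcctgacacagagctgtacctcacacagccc

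A second entry of the deposited tables bears on the level of Kcnma1. GENCODE M21 assigns the transcript Kcnma1-205 (ENSMUST00000145596) to Kcnma1, with a length of 12094 nt and a longest exon of 7755 nt. In the deposited quantification this transcript stands with a length of 1353 nt under the separate gene identifier ENSMUSG00000071567. That entry had 3904 expected counts and 157 TPM in pool 1 and 3803 expected counts and 121 TPM in pool 2. It is not a member by the rule, and its reads are in none of the Kcnma1 values above. With it, the locus had 20046 expected counts in pool 1 and 17454 in pool 2, of which the second entry held 19.5% and 21.8%. Which part of the longer M21 model the 1353 nt cover was not determined here, so the levels in TPM were not added. The gene level of Kcnma1 given above may be read as one that leaves out this part of the locus.

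**Figure D3:**
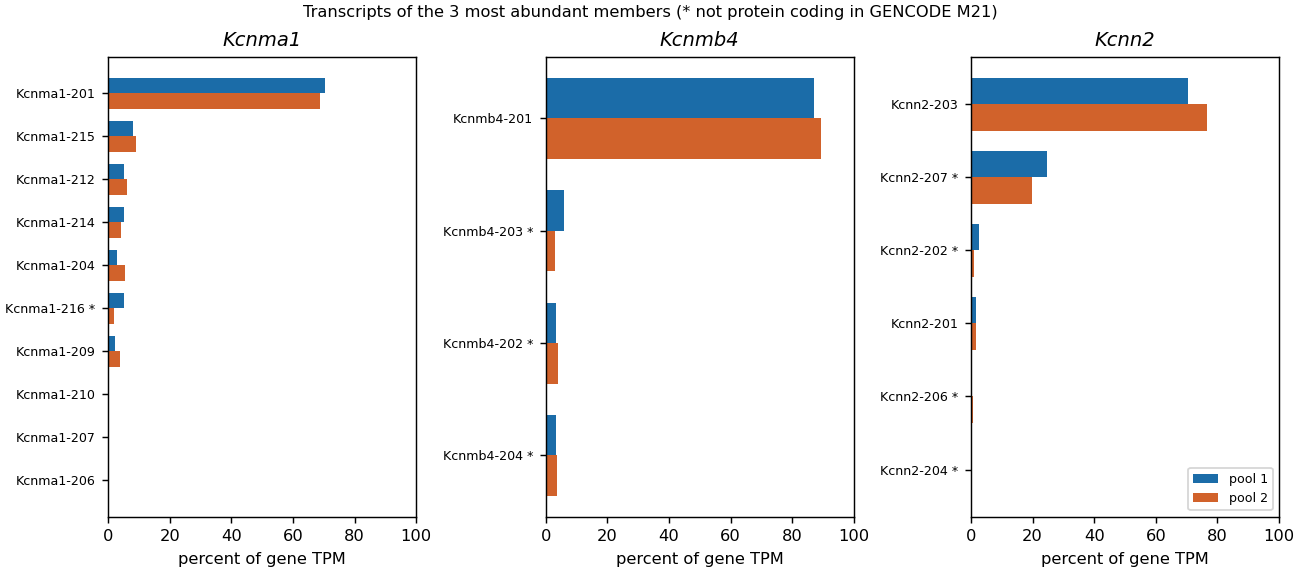
Percent of the gene's TPM taken by each transcript with a share above 0, for Kcnma1, Kcnmb4 and Kcnn2, in pool 1 and pool 2. Bars start from 0, and an asterisk marks models not protein coding in GENCODE M21. In each gene the same transcript leads in both pools: Kcnma1-201 with 70.4% and 68.8%, Kcnmb4-201 with 87.1% and 89.4%, and Kcnn2-203 with 70.5% and 76.6%.

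Kcnmb4 led the beta subunits, which bind the BK alpha subunit and change its calcium sensitivity, gating speed and pharmacology. Kcnmb4 encodes beta4, the subunit typical of neurons, which slows gating and makes the channel resistant to the toxin iberiotoxin (chromosome 10, minus strand, 116417861 to 116473878). It had 18.4 TPM in pool 1 (95% exact Poisson interval 16.7 to 20.2; 437 expected counts) and 18.8 TPM in pool 2 (17.3 to 20.4; 578 expected counts). The pools overlapped within counting error. Kcnmb4 took 78.8% of the summed TPM of Kcnmb1 to Kcnmb4 in pool 1 and 88.8% in pool 2.

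The coding transcript Kcnmb4-201 of 1367 nt took 87.1% and 89.4% of the gene in pools 1 and 2, and Kcnmb4-203, a noncoding model, took 5.99% and 3.07% from 9 and 6 expected counts. The antisense gene Kcnmb4os2 shares 693 exon bases with Kcnmb4 and had 9.63 and 10.96 TPM (109 and 159 expected counts). No source used here says whether the counting used strand. Reads of the pair may have been exchanged. Kcnma1 had 11.1 times the TPM of Kcnmb4 in pool 1 and 7.23 times in pool 2, so this ratio of TPM was higher in pool 1. It leaves out the second entry of the Kcnma1 locus. Kcnma1 also has longer transcripts than Kcnmb4, and over all genes the pool ratio fell with length, as described below.

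Kcnmb1 encodes beta1, the subunit of smooth muscle BK channels, which raises their calcium sensitivity (chromosome 11, plus strand, 33963013 to 33973641). It had 4.47 TPM in pool 1 (4.02 to 4.95; 363 expected counts) and 2.19 TPM in pool 2 (1.91 to 2.49; 226 expected counts). The pools did not overlap within counting error. Its share of the summed beta TPM was 19.2% in pool 1 and 10.3% in pool 2. In total TPM, Kcnmb4 exceeded Kcnmb1 by 4.11 times in pool 1 and 8.59 times in pool 2.

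Of 10 markers of smooth muscle and pericytes, 3 were detected, with a summed TPM of 46.7 in pool 1 and 41.8 in pool 2. By TPM, 7 of the 10 were lower in pool 2 and 3 were higher. By the 1.5-fold rule on TPM + 1 used below, 2 were lower and 1 was higher, beside 5.5% and 3.82% of all genes with a read. The detected markers were Vtn (23.9 TPM in pool 1 and 25.6 in pool 2), Rgs5 (13.97 and 12.4 TPM) and Pdgfrb (1.47 and 1.11 TPM), which are known from pericytes. The markers past the rule were under the detection level in at least 1 pool: Acta2, smooth muscle actin, had 3.92 and 0.07 TPM, Tagln had 1.32 and 0.27 TPM, and Kcnj8 had 0.31 and 1.12 TPM. The smooth muscle genes Myh11 (0.45 and 0.09 TPM), Mylk (0.52 and 0.38 TPM) and Cnn1 (0.07 and 0.02 TPM) were under 1 TPM in both pools. Like Acta2 and Tagln they were lower in pool 2, but Cnn1 had only 3 and 1 expected counts, and Mylk had 79 and 73. The markers that were higher in pool 2 were Vtn, Kcnj8 and Abcc9. The list as a whole therefore did not move in 1 direction, and its smooth muscle genes were grouped here after their values were seen. The part of these cells in the level of Kcnmb1 was not tested. Kcnmb1 also lies within the span of Kcnip1 on the opposite strand, with no exon base in common, and Kcnip1 had 415 TPM in pool 1 and 292 in pool 2. Kcnip1 was lower in pool 2, as Kcnmb1 was, and its part in the level of Kcnmb1 was not tested.

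Kcnmb2 encodes beta2, which inactivates BK channels through its N-terminus (chromosome 3, plus strand, 31902507 to 32200180). It had 7 expected counts in pool 1 and 11 in pool 2, but 0.42 and 0.17 TPM, so counts and TPM gave opposite orders of the pools. In pool 1, 1.45 of the expected counts were assigned to Kcnmb2-206, a model of 338 nt, which thereby took 73.2% of the gene's TPM. In pool 2 all were assigned to Kcnmb2-201, a model of 2600 nt. A difference between the pools was not detectable at this depth.

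Kcnn2 encodes SK2 and was the only SK gene detected (chromosome 18, plus strand, 45268860 to 45686024). It had 17.4 TPM in pool 1 (16.1 to 18.8; 641 expected counts) and 19.3 TPM in pool 2 (18.1 to 20.6; 875 expected counts). The intervals overlapped. Kcnn2 took 96.6% of the summed TPM of Kcnn1 to Kcnn4 in pool 1 and 96.9% in pool 2, and its TPM was 45.7 and 41.1 times that of Kcnn1. Kcnma1 had 11.7 times the TPM of Kcnn2 in pool 1 and 7.05 times in pool 2.

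Kcnn2 has a group of start sites far upstream and another near the first exon of the short form of SK2. The upstream group holds Kcnn2-201, with a coding length of 2517 nt, and also Kcnn2-205, with 1722 nt and 0 expected counts. The 3 models that start between 45268860 and 45269005 took 2.05% of the gene in pool 1 and 1.77% in pool 2. The 4 models that start between 45559469 and 45560154 took 97.96% and 98.2%. The order was the same in both pools, with a far larger gap than their spread. It is a split by the annotated starts of models and not a measure of long against short SK2.

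Among the latter, Kcnn2-203 led with 12.2 TPM or 70.5% of the gene in pool 1 and 14.8 TPM or 76.6% in pool 2, and Kcnn2-207, annotated as a retained intron, had 24.6% and 19.9%. Kcnn2-203 has a coding length of 1302 nt and lacks the exon of 419 nt at 45592006 to 45592424. Kcnn2-208, a model of GENCODE M21 with that exon, 8 exons and a coding length of 1722 nt, was not analysed here. The lead of Kcnn2-203 is therefore a lead among the analysed models and not a measure of skipping of that exon. Models annotated as not protein coding took 27.8% of Kcnn2 in pool 1 and 21.8% in pool 2.

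Kcnn1 (SK1; chromosome 8, minus strand, 70842049 to 70863258) had 0.38 TPM in pool 1 (0.256 to 0.542; 30 expected counts) and 0.47 TPM in pool 2 (0.345 to 0.625; 47 expected counts). Kcnn3 (SK3; chromosome 3, plus strand, 89520164 to 89675132), the SK channel of dopamine neurons and endothelium, had 0.23 TPM (0.134 to 0.368, from 17) and 0.14 (0.0745 to 0.239, from 13). For both genes the intervals of the pools overlapped. Kcnn3 was divided between the coding model Kcnn3-201, with 59.7% and 58.5% of the gene's TPM, and the retained-intron model Kcnn3-202. By expected counts the order was the other way. Kcnn3-201 had 7.55 in pool 1 and 5.62 in pool 2, and the longer Kcnn3-202 had 9.45 and 7.38.

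Kcnn4 (chromosome 7, plus strand, 24370263 to 24386690) encodes the intermediate-conductance channel of red blood cells, lymphocytes and microglia. It had 0 expected counts in both pools, which allows a level of up to 0.0781 TPM in pool 1 and 0.0616 TPM in pool 2 (the level of 3 counts). Blood markers were detected in full, 5 of 5, and 6 of 9 microglial markers were detected, with a summed microglial TPM of 41.7 in pool 1 and 55.5 in pool 2. Kcnn4 was thus not detectable at this depth in pools where those markers were present.

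The difference between the pools was not the same for all detected members. Measured as a log2 ratio after adding 1 TPM, with pool 2 in the numerator, the difference was -0.58 for Kcnma1, -0.78 for Kcnmb1, 0.03 for Kcnmb4 and 0.14 for Kcnn2. At a threshold of 1.5-fold on this scale, 1 of the 8 members (Kcnmb1) was lower in pool 2 and none was higher, and Kcnma1 lay just inside the threshold. These calls depend on the scale between the libraries. With spike-in counts as the scale, 0 of the 8 members were lower and 3 were higher (Kcnmb4, Kcnn2 and Kcnn1), the ratio of Kcnmb1 was -0.32 and that of Kcnma1 turned to 0.11, while over all genes with a read 1.54% were lower and 35.5% higher. With a pseudocount of 0.1 TPM, 2 members were lower (Kcnmb1 and Kcnmb2) and none was higher, beside 16.9% and 16.3% of all genes with a read. On the TPM + 1 scale, over the 22727 genes with a read, 5.5% were lower and 3.82% were higher by this rule, and over the 13210 genes whose mean reached 1 TPM the shares were 7.25% and 4.27%. The ratio of Kcnma1 to Kcnn2 within a library does not depend on the scale between libraries, but these genes differ in transcript length, which is described next.

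Kcnma1 and Kcnmb1 have long transcripts (mean 4094 and 4191 nt), and Kcnmb4 and Kcnn2 shorter ones (1308 and 1929 nt), and the pool ratio fell with length over all genes. Among the 36 genes with a mean TPM of at least 100 and a length of at least 4000 nt, the class of Kcnma1, the median log2 ratio was -0.52 with a 5th to 95th percentile range of -0.77 to -0.08. Kcnma1 lay near that median. Among the 1556 genes at 1 to 10 TPM and at least 4000 nt, the class of Kcnmb1, the median was -0.20 and the range -0.70 to 0.29, and Kcnmb1 lay below it. Among the 1820 genes at 10 to 100 TPM and 1000 to 2000 nt the median was 0.02 and the range -0.44 to 0.47, and Kcnmb4 and Kcnn2 lay within it. The part of transcript length in the difference between the members was not tested.

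**Figure D4:**
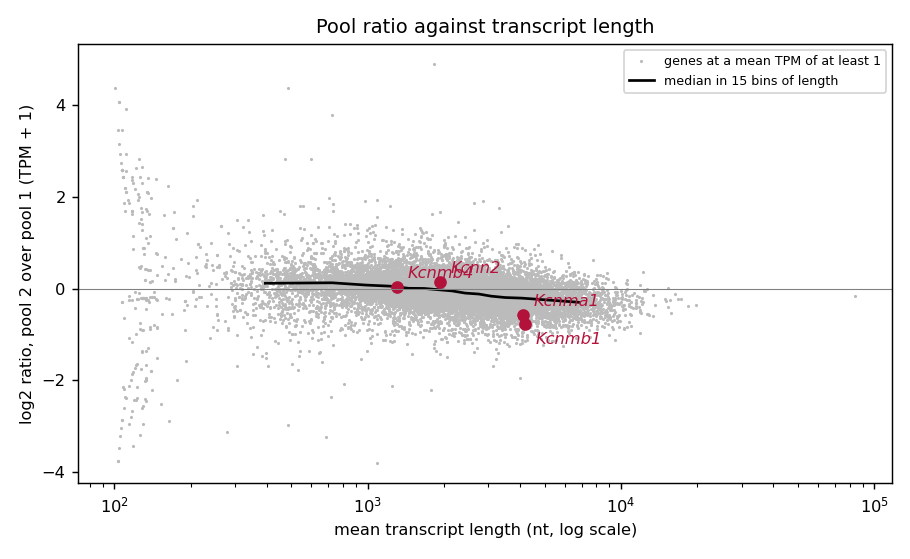
Log2 ratio of the pools (TPM + 1, pool 2 as numerator) against mean transcript length (log axis) for 13210 genes whose mean reached 1 TPM (grey), with the median in bins of length (black line) and the 4 detected members (red). The line falls from above 0 for short transcripts to below 0 for long ones. Kcnmb4 and Kcnn2 lie near it at 0.03 and 0.14, and Kcnma1 and Kcnmb1 lie below it at -0.58 and -0.78.

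Other genes that form or gate these channels were described from lists chosen by function. Of 7 other auxiliary subunits, Lrrc38 and Lingo2 were detected. Lrrc38, a gamma subunit that shifts BK activation to lower voltages, stood at 2.38 and 2.54 TPM in pools 1 and 2, and Lingo2 stood at 6 and 4.31 TPM. Kcnmb3, which encodes beta3, had 2 and 1 expected counts, and the gamma subunit genes Lrrc26 and Lrrc52 were listed at 0 in both pools. Of 3 other genes of the Slo family, Kcnt1, a sodium-activated channel, was detected with 2.04 TPM in pool 1 and 4.72 TPM in pool 2, an order opposite to that of Kcnma1.

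All 9 genes of the SK gating complex passed the detection level, and their median was 173 TPM in pool 1 and 190.2 in pool 2, beside 11.1 and 10.2 TPM over all detected genes. Among them were the calmodulin gene Calm2 (8544 and 6773 TPM) and Csnk2b (228 and 234 TPM), the regulatory subunit of casein kinase 2, which phosphorylates SK-bound calmodulin. Calm2 has close copies in the genome, so its reads may have been shared with them.

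Of 13 genes of calcium sources, 8 were detected, among them the IP3 receptor Itpr1 (547 and 367 TPM) and the P/Q-type calcium channel Cacna1a (43.8 and 42.3 TPM). Kcnma1 thus stood below Itpr1 and above Cacna1a in both pools, and Kcnn2 stood below both. Of 12 genes listed as modulators of the channels, 8 were detected. The highest were Ank2 (366 and 267 TPM), Dpp10 (115 and 79.9 TPM) and Prkg1 (55.1 and 27.3 TPM), the kinase of the cGMP pathway that acts on BK channels. On the 1.5-fold rule by TPM Prkg1 was lower in pool 2, 1 of the 12 genes of its list. None of the SK gating or calcium source genes changed by that rule. Over all genes with a read, 5.5% were lower and 3.82% higher by it.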

How the data were processed

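RNA over 200 nt from 2 pools of 50 Purkinje cells was sequenced with synthetic spike-in RNAs, per the labels. The authors quantified transcriptome alignments to mm10 with GENCODE M4, per the notes deposited with the files. The aligner, quantification tool and use of strand are not given in the sources used here. Expected counts were deposited as estimated, unnormalized reads, and reads that fit several transcripts were divided among them. The deposited TPM values are scaled by length and library with the spike-ins included. Isoform shares are the deposited percent of gene TPM per transcript. The deposited bounds of TPM were not used in the text, since their level is not stated.

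Symbols, positions and exon structures came from GENCODE M21 on the same assembly, and structures were used only where transcript lengths matched. Genes with 1 TPM or more in each pool were called detected. Log ratios used a pseudocount of 1 TPM. Counting intervals are 95% exact Poisson, and the limit for no reads is 3 counts. Both cover counting error only, and reads are not independent molecules. Scaling alternatives used edgeR 4.0.16 TMM factors (genes with at least 10 counts) and DESeq2 1.42.0 size factors on expected counts rounded to whole numbers, with 0.5 added to CPM, and were tested on simulated data. Python 3.11.15, pandas 2.3.3, scipy 1.17.1 and R 4.3.3 were used. With 1 group, no test between conditions was made.

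All members were described, with the 3 highest genes of each functional list (some are not reported here), the 3 Kcn genes nearest in level to Kcnma1 and to Kcnn2, and transcripts at 5% or more of a detected member. Other transcripts, the lower genes of the lists and the overlapping genes were named after their values were seen, and so were the rule for the alternative Kcnma1 exons and the grouping of start sites more than 100000 bases apart. The members and lists were chosen with earlier results of these data known. Alternatives were other scales, pseudocounts, thresholds and filters, posterior mean values, count shares, and each pool alone.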

Additional observations from a re-analysis of the deposited data

How the results depend on the processing

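Kcnma1, Kcnmb4, Kcnn2 and Kcnmb1 kept their order of mean TPM in each pool except that Kcnmb4 and Kcnn2 exchanged places. Without replicate 1 the mean TPM of Kcnma1 became 136 and without replicate 2 it became 203. With expected counts in place of TPM, so that longer transcripts count for more, the share of Kcnmb4 in the beta subunits moved from 83.8% to 62.4%, that of Kcnn2 in the SK genes from 96.8% to 93.4%, that of Kcnma1 in the pore subunits from 89.5% to 94.7%, and that of Kcnma1 in the BK subunits from 88.1% to 94.8%. With the posterior mean TPM the Kcnn2 share was 96.4%, and with TPM rescaled to mouse genes the mean of Kcnmb4 was 19.01. With a minimum of 3 expected counts in each pool in place of the TPM threshold, 7 members passed in place of 4. The share of all mouse genes that pass this rule is not given here, so the count has no background to be read against.

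Spike-in counts as the scale raised the median log2 ratio of genes to 0.57, against -0.07 by TPM. On that scale the log2 ratio of pool 2 over pool 1 turned to 0.11 for Kcnma1. It was 0.74 for Kcnmb4, 0.79 for Kcnn2 and -0.32 for Kcnmb1. By the 1.5-fold rule 0 members were then lower and 3 higher, in place of 1 and 0. Of the 22727 genes with a read, 1.54% were lower and 35.5% higher on the spike-in scale, in place of 5.5% and 3.82%. With a pseudocount of 0.1 TPM, 2 members were lower and 0 higher, beside 16.9% and 16.3% of those genes. With edgeR TMM, DESeq2 size factors, a pseudocount of 0.1 and the second entry of the locus joined (an alternative chosen after seeing the data, -0.43) Kcnma1 kept its sign. The ratio of Kcnmb2, which rests on 7 and 11 expected counts, was -0.28 by TPM and turned to 0.16 with TMM, 0.16 with DESeq2 size factors, 0.41 with the spike-ins and 0.17 with CPM by library total, also chosen after seeing the data. Depth limits Kcnmb2, Kcnn3 and Kcnn4, with 17 or fewer expected counts in each pool. No leave-out test of a pool ratio was possible, since leaving out a pool leaves 1 value.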
